A study of Mus musculus with 6 samples.

Results

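The genes described here are 7 genes of zinc storage, sensing and transport: the metallothioneins Mt1 and Mt2, the transcription factor Mtf1, the exporter Slc30a1, and the importers Slc39a1, Slc39a8 and Slc39a14. They were chosen by symbol, and all 7 were found among the 55039 genes of the deposited table. RNA was sequenced from epididymal white adipose tissue (eWAT) of 3 mice with Lewis lung carcinoma (LLC) tumors, called CAC for cancer-associated cachexia, and 3 mice without tumors, called CONT. All were male C57BL/6 mice, 6 to 7 weeks old at the start, and each gave 1 library. CAC mice received 5000000 LLC cells, a mouse lung cancer line, in phosphate-buffered saline (PBS) under the skin of the lower back near the ilium, CONT mice received PBS alone, and tissue was taken 28 days later. The cells were placed outside this fat pad, and the comparison asks how the fat of tumor-bearing mice differed from that of controls.

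Zinc inside cells is held at very low free levels. Metallothioneins are small cysteine-rich proteins that bind zinc and copper. MTF1 senses free zinc through its zinc fingers and binds metal response elements (MREs) in the promoters of metallothionein genes and of Slc30a1, whose product ZnT1 moves zinc out of the cell. The SLC39 (ZIP) proteins move zinc into the cytosol, and ZIP8 and ZIP14, the products of Slc39a8 and Slc39a14, also carry iron and manganese. Mt1, Mt2 and Slc39a14 are known to respond to glucocorticoids or to interleukin-6 in liver, and ZIP14 is known as an importer of the acute-phase response.

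The stretches upstream of Mt1, Mt2 and Slc30a1 are shown because these genes are the textbook targets of MTF1. Each runs in the direction of the gene and ends before its earliest annotated start, with matches to the core of the MRE in capitals. The core was written as TGCACNC or TGCGCNC and searched on both strands, so GAGTGCA and GTGTGCA are matches on the opposite strand. They lie at chr8:94178839-94179081, chr8:94172368-94172617 and chr1:191906531-191906766, all on the plus strand, and were taken from RefSeq for build GRCm38.p6.
Mt1: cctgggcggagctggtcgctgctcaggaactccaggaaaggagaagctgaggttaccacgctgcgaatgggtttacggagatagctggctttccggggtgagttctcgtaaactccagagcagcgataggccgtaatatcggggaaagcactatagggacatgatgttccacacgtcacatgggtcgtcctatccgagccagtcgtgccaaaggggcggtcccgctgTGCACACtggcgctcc
Mt2: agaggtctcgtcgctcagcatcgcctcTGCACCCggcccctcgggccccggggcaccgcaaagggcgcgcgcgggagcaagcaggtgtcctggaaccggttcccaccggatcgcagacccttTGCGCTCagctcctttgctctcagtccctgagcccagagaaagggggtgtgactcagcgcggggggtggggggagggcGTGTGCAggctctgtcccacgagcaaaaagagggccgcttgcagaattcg
Slc30a1: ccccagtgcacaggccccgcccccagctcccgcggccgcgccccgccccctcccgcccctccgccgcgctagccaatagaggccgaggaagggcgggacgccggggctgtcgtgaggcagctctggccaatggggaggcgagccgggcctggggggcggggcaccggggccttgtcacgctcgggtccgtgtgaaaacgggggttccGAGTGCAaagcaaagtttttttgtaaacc

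RefSeq windows from 250 bases before to 50 bases after an annotated start were given for 6 of the 7 genes, as 7 windows with a pair for Slc39a8. No window was given for Slc39a14, so it was not searched for any motif. The MRE core was present in 4 of the 6 genes searched and in 25.7% of all 32851 windows. Mt2 had 4 matches, a number reached by 0.518% of all windows. Mt1 had 3, reached by 1.97%, and Slc30a1 had 2, reached by 7.11%. In Mt1 the matches began 23 bases before the start and at positions 3 and 21, counting the start base as position 1. Slc39a8 had 1 match, 19 bases before the later of its annotated starts. The windows of Mtf1 and Slc39a1 had none. Of the other motifs searched on both strands, CACGTG, the E-box bound by USF proteins, was found in Slc39a8 alone and in 7.15% of all windows, and it did not overlap the MRE match there. No window of these genes held TTCNNNGAA, a STAT motif (8.30% of all windows), the full palindromic glucocorticoid response element (0.00913%), or the TATA box letters TATAAA (13.6%). A match describes letters within these windows and is not a measured binding site.

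**Figure D1:**
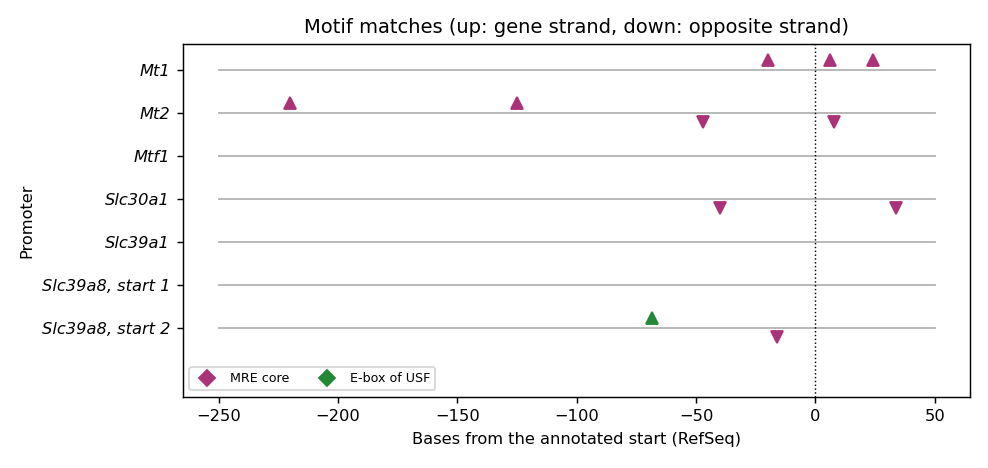
Positions of motif matches (horizontal axis, bases from the annotated start) in the RefSeq promoter windows of 6 genes (vertical axis, 1 row per annotated start). Purple triangles are MRE cores and the green triangle is the E-box. The 4 matches of Mt2 spread from position -223 to position 11, and Mtf1 and Slc39a1 have none.

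The libraries held 15713794 to 25926425 counts, with the CAC libraries the deeper. Mitochondrial genes took 30.2% of the counts of CONT replicate 1 and 3.89% to 5.04% of the other 5 libraries. CONT replicate 1 also stood apart by gene length: relative to the other CONT libraries its median log2 difference was 0.42 over 2471 genes shorter than 1500 bases and -0.42 over 6212 genes longer than 5000 bases. The zinc genes that touch these classes were spread in the same order, with Mt1 at 1.32 and Mt2 at 0.85 (both short) and Slc39a14 at -1.16, Slc30a1 at -0.88 and Mtf1 at -0.59 (all long). Slc39a8, also long, lay at -0.00299, and Slc39a1, of medium length, at -0.77. The log2 fold change without CONT replicate 1 is therefore given below for each of the 7 genes. Adipocyte markers summed to 17170 to 35760 CPM (read counts scaled to a common library size) in CONT and 15840 to 34820 in CAC, which matched the labelled tissue. Markers of the adjoining epididymis summed to 8187 CPM in CONT replicate 3 and to at most 203 CPM in the others, and testis markers to 1093 CPM in CONT replicate 2 and 1553 CPM in CAC replicate 3 and to at most 16.4 CPM elsewhere.

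All 7 zinc genes had a higher fitted level in CAC than in CONT, and 0 of the 7 passed the test at an adjusted p under 0.05. The test was edgeR's quasi-likelihood test over the 17296 genes that passed its expression filter, all 7 included, and it called 0% of them. At an unadjusted p under 0.05, 3 of the 7 were higher in CAC (Mt2, Slc39a8 and Slc39a14), against 6.31% of all genes tested, and 0 were lower, against 6.95%. In 2 of the 7, Slc39a8 and Slc39a14, every CAC library lay above every CONT library, against 11.8% of all genes, and in 0 every CAC library lay below, against 10.7%. DESeq2, the tool of the study, called these same 2 genes higher at an adjusted p under 0.05, against 2.86% of the 18444 genes it tested. The median log2 fold change of the 7 was 1.00, beside -0.06 over all genes tested. Levels below are CPM on library sizes adjusted by edgeR's TMM factors unless FPKM, which divides by gene length as well, is named.

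**Figure D2:**
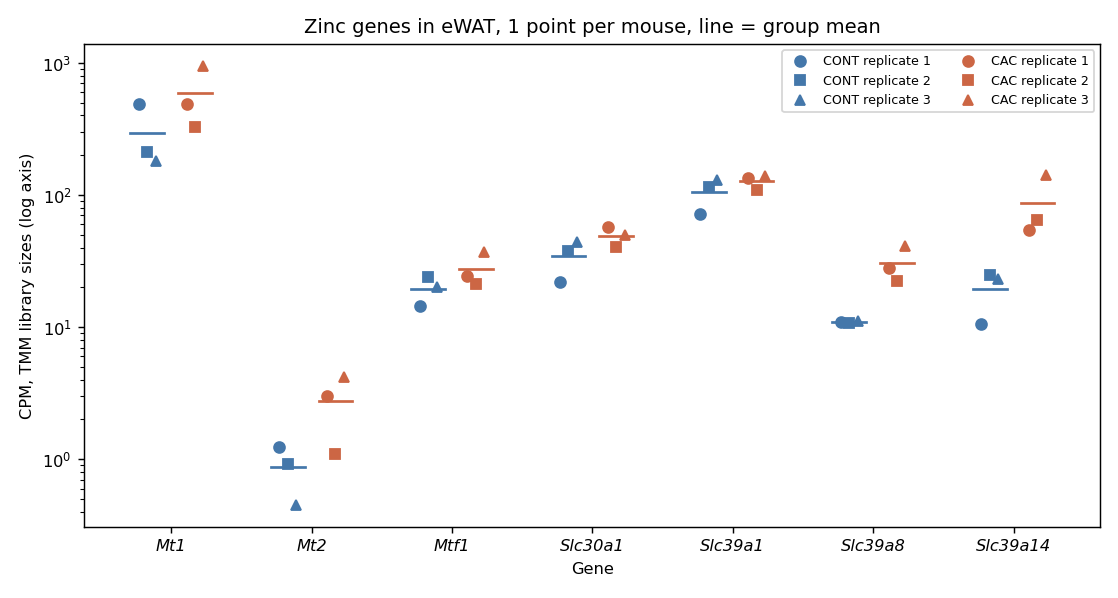
CPM of the 7 zinc genes (logarithmic vertical axis) in each library, with 1 point per mouse, replicates told apart by shape, and a line at the mean of each group of 3. The groups are apart in Slc39a8 and Slc39a14 and overlap in the other 5 genes, and CAC replicate 3 is the highest library in 6 of the 7, the exception being Slc30a1.

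Slc39a14 (ENSMUSG00000022094, GRCm38 chr14:70303469-70351425, minus strand) had the largest log2 fold change of the 7 with all libraries, and came after Mt2 without CONT replicate 1. Its product ZIP14 takes zinc, iron and manganese into cells. The CONT libraries held 119, 564 and 509 reads, or 10.6, 24.7 and 23.0 CPM in the order of the replicates. The CAC libraries held 1320, 1606 and 3765 reads, or 54.2, 64.8 and 142 CPM. The lowest CAC library was thus above the highest CONT library, with CAC replicate 3 far above the other two. Group means were 19.4 ± 7.69 (CONT) and 87.1 ± 48.0 CPM (CAC), SD over 3 mice each, with a ratio of 4.48. The log2 fold change was 2.16 (standard error 0.49, 95% confidence interval 0.99 to 3.33, adjusted p = 0.228 by edgeR, unadjusted p = 0.00357). This was 1.62 without CAC replicate 3 and 1.88 without CONT replicate 1. DESeq2 gave 2.20 with an adjusted p of 0.00117.

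Slc39a8 (ENSMUSG00000053897, chr3:135825279-135888572, plus strand) encodes ZIP8, the closest relative of ZIP14 and likewise a carrier of zinc, iron and manganese. In CONT it was nearly constant at 10.9, 10.7 and 11.1 CPM (122, 245 and 245 reads). In CAC it lay at 27.9, 22.4 and 41.2 CPM (679, 554 and 1091 reads). No CAC library came near the CONT values, and the spread among CAC mice was the wider. The means were 10.9 ± 0.172 and 30.5 ± 9.68 CPM (SD, n = 3 each), a ratio of 2.80. The log2 fold change was 1.48 (standard error 0.27, 95% confidence interval 0.84 to 2.13, adjusted p = 0.215 by edgeR, unadjusted p = 0.00112). Leaving out single libraries gave 1.21 to 1.68, with 1.495 without CONT replicate 1. By DESeq2 the log2 fold change was 1.51 with an adjusted p of 0.000282. Both this gene and Slc39a14 kept an unadjusted p under 0.05 in each alternative fit.

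Slc39a1 (ENSMUSG00000052310, chr3:90248172-90253612, plus strand) encodes ZIP1, a widely expressed zinc importer of the plasma membrane. Its CPM were 71.8, 115 and 130 in CONT and 135, 109 and 139 in CAC. The groups overlapped, and CONT replicate 1 was the lowest library. CAC over CONT gave a log2 fold change of 0.27 (95% confidence interval -0.36 to 0.91, adjusted p = 0.677 by edgeR) and 0.07 without CONT replicate 1. Of the 50-base windows of this gene, 21.8% also occur in the pseudogene Slc39a1-ps, which held 46 reads over all libraries against 15955 for Slc39a1.

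The makeup of the importers was compared per unit of gene length. The 14 SLC39 genes summed to 71.8 ± 16.2 FPKM in CONT and 88 ± 10.5 FPKM in CAC (SD, n = 3, exact two-sided permutation p = 0.2). Slc39a14 made up 1.52%, 2.45% and 2.05% of this sum in CONT and 4.83%, 6.41% and 11.1% of it in CAC. The groups did not overlap (exact permutation p = 0.1, the smallest that 3 against 3 allows). Slc39a8 took 2.14%, 1.46% and 1.36% in CONT and 3.42%, 3.05% and 4.44% in CAC (exact permutation p = 0.1). Slc39a1 was the most abundant in every library at 49.4 ± 3.15% in CONT and 50.1 ± 3.25% in CAC (exact permutation p = 1). Adjusted over the 26 comparisons of sums and shares in the SLC39 and SLC30 families, the smallest p was 0.578, and the shares of a sum are not independent of each other.

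**Figure D3:**
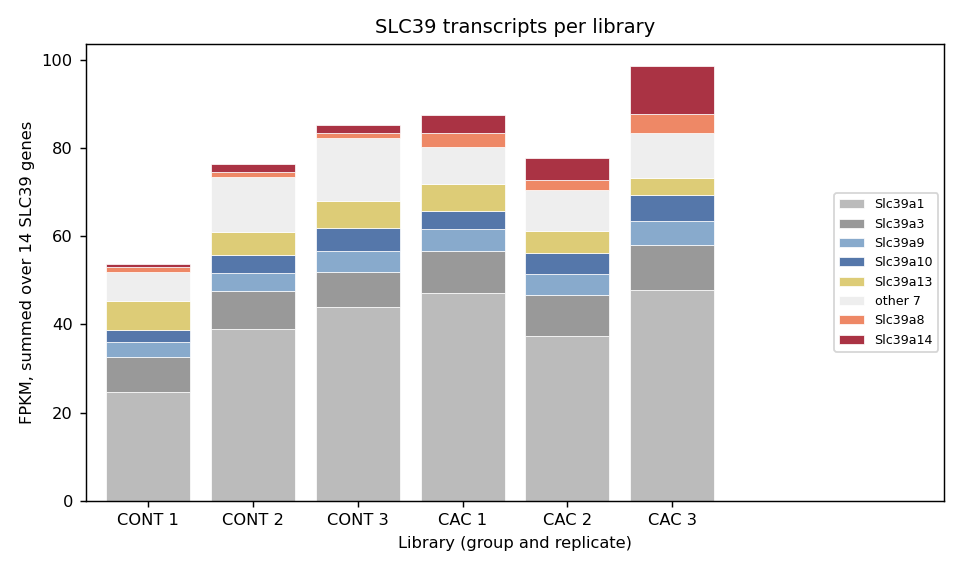
FPKM of the 14 SLC39 genes stacked per library (vertical axis, FPKM from 0, with the 6 libraries on the horizontal axis). Slc39a1 is the largest block throughout, and the dark red block of Slc39a14 is 1.52% to 2.45% of the bar in CONT and 4.83% to 11.1% in CAC.

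Slc30a1 (ENSMUSG00000037434, chr1:191906767-191913247, plus strand), the zinc exporter that MTF1 is known to induce, had 22.1, 37.9 and 44.0 CPM in CONT (248, 866 and 973 reads). The CAC libraries had 57.7, 40.5 and 49.8 CPM (1406, 1004 and 1320 reads). CONT replicate 3 lay above CAC replicate 2, so the groups overlapped. The log2 fold change was 0.51 (standard error 0.29, 95% confidence interval -0.19 to 1.21, adjusted p = 0.480 by edgeR), and it was 0.28 without CONT replicate 1. As a share of the summed FPKM of the 10 SLC30 genes, which was 32.3 ± 8.48 in CONT and 32.2 ± 5.01 in CAC, Slc30a1 took 15.2%, 15.2% and 18.5% in CONT and 28.3%, 23.1% and 20.8% in CAC. These shares did not overlap between the groups (exact permutation p = 0.1, or 0.578 adjusted over the 26 comparisons), while the FPKM of Slc30a1 itself overlapped, at 3.42, 5.77 and 6.74 in CONT and 9.07, 6.27 and 7.74 in CAC. The sum also held Slc30a2, at 2.34%, 16.8% and 14% in CONT and 0.652%, 2.54% and 1.37% in CAC. A share of Slc30a1 depends on the whole sum, Slc30a2 included. It did not follow Slc30a2 in CONT replicate 1, where Slc30a2 was low and Slc30a1 took 15.2%, as in CONT replicate 2. Slc30a3 took 18.7% in CONT replicate 2 and at most 7.67% in the other libraries. Its reads were 0, 575 and 189 in CONT and 10, 15 and 263 in CAC. Most lay in the libraries with the high testis or epididymis sums given above, and their origin was not tested.

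Mt1 (ENSMUSG00000031765, chr8:94179082-94180327, plus strand) was the most abundant of the 7 in every library. Its CPM were 489, 213 and 181 in CONT (5487, 4863 and 4007 reads) and 489.5, 327 and 948 in CAC (11920, 8092 and 25102 reads). CONT replicate 1 was level with CAC replicate 1 and above CAC replicate 2. The means were 295 ± 170 and 588 ± 322 CPM (SD, n = 3 each). The log2 fold change was 1.00 (standard error 0.54, 95% confidence interval -0.31 to 2.30, adjusted p = 0.460 by edgeR). This value turned on single libraries, at 1.59 without CONT replicate 1 and 0.48 without CAC replicate 3. With DESeq2 the adjusted p was 0.344 on all libraries and 0.0124 without CONT replicate 1, an alternative chosen after the data had been seen.

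Mt2 (ENSMUSG00000031762, chr8:94172664-94173568, plus strand) lies beside Mt1 on the same strand and encodes a near relative of its protein. It had 14, 21 and 10 reads in CONT and 73, 27 and 112 reads in CAC, or 1.25, 0.920 and 0.452 CPM against 3.00, 1.09 and 4.23 CPM. CAC replicate 2 lay below CONT replicate 1, so the groups overlapped. The log2 fold change was 1.68 (standard error 0.67, 95% confidence interval 0.08 to 3.28, adjusted p = 0.363 by edgeR, unadjusted p = 0.0424). Without single libraries it ran from 1.25 to 2.06, with 2.025 without CONT replicate 1. By edgeR, the unadjusted p was 0.0493 without CONT replicate 1 and 0.0256 without CAC replicate 2. With any other library left out it was 0.0936 to 0.143. Of the 588 exon bases of Mt2, 432 (73.5%) are shared with Gm45774, a gene on the opposite strand with 69 reads over all libraries. How reads over both genes were counted is not given in the sources used here, so the level of Mt2 and its ratio to Mt1 are uncertain. As deposited, 163 to 401 reads of Mt1 were counted per read of Mt2. On a log2 scale, the FPKM ratio of Mt2 to Mt1 was -7.29 ± 0.448 in CONT and -6.71 ± 0.438 in CAC (SD, n = 3 each, exact permutation p = 0.2).

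Summed over Mt1 and Mt2, CPM were 490.5, 214 and 182 in CONT and 492.5, 328 and 952 in CAC. The means of 295 ± 170 and 591 ± 324 gave a ratio of 2.0 (exact permutation p = 0.2). The log2 ratio of the means was 1.00 on all libraries, 1.58 without CONT replicate 1 and 0.47 without CAC replicate 3. On raw library totals, which are not adjusted for the mitochondrial reads of CONT replicate 1, the ratio was 2.29 and the groups did not overlap (exact permutation p = 0.1).

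Mtf1 (ENSMUSG00000028890, chr4:124802104-124849800, plus strand), the zinc sensor itself, had 14.5, 23.9 and 20.2 CPM in CONT and 24.2, 21.2 and 37.0 CPM in CAC. CONT replicate 2 lay above CAC replicate 2, and the groups overlapped. Its log2 fold change was 0.49 (95% confidence interval -0.23 to 1.21, adjusted p = 0.505 by edgeR), with 0.22 without CAC replicate 3 and 0.33 without CONT replicate 1. The antisense gene 1110065P20Rik shares 721 of the 8907 exon bases of Mtf1 and held 2202 reads against 3248 for Mtf1, and 1700034H15Rik shares 468 of the 5244 exon bases of Slc30a1 and held 155 reads against 5817. Without strand information, reads over these shared bases cannot be assigned with certainty.

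**Figure D4:**
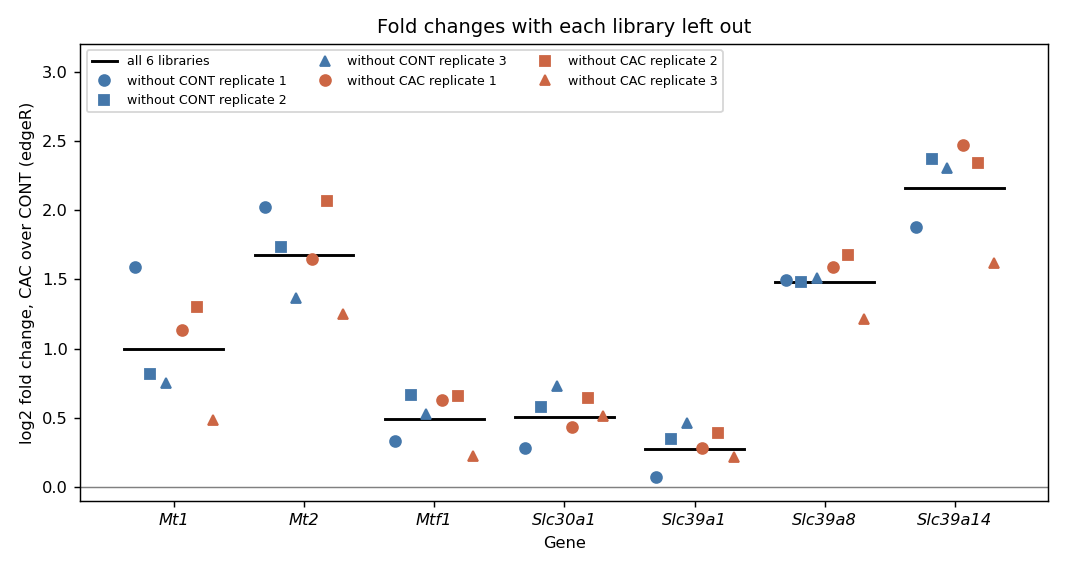
Log2 fold changes of CAC over CONT by edgeR (vertical axis) for each of the 7 zinc genes with all 6 libraries (black line) and with each library left out in turn (points). All points lie above 0, those of Mt1 run from 0.48 to 1.59, and those of Slc39a14 from 1.62 to 2.47.

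In order of level per length, the 7 genes ranked alike at the top in both groups. Mt1 averaged 191 ± 111 FPKM (SD, n = 3) in CONT and 385 ± 210 in CAC, followed by Slc39a1 at 35.8 ± 10.03 and 44.1 ± 5.85 FPKM and Slc30a1 at 5.31 ± 1.70 and 7.69 ± 1.40 FPKM. In CONT the ranges of these 3 were separate from each other and from the rest. Mtf1, Slc39a14, Mt2 and Slc39a8 followed at 1.76, 1.48, 1.20 and 1.14 FPKM, and the ranges of neighbours in this order overlapped, while Mtf1 (1.32 to 2.14) lay above Slc39a8 (1.12 to 1.16) in every library. In CAC, Slc39a14 came next at 6.73 ± 3.70 FPKM, and its range of 4.23 to 10.98 overlapped that of Slc30a1, 6.27 to 9.07. Mt2, Slc39a8 and Mtf1 came last at 3.85, 3.25 and 2.52 FPKM with overlapping ranges. Within each CAC library, however, Slc39a8 (3.00, 2.37 and 4.38 FPKM) lay above Mtf1 (2.24, 1.93 and 3.38 FPKM). The place of Mt2 is uncertain in both groups, since most of its exon bases are shared with Gm45774.

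Among the other genes of zinc handling, edgeR called 0 at an adjusted p under 0.05. Of 10 other SLC39 genes tested, 0 had an unadjusted p under 0.05 in the higher direction (6.31% of all genes) and 2 in the lower (6.95%), with a median log2 fold change of -0.07. Slc39a5, a zinc importer known from gut and pancreas, had 67, 40 and 30 reads in CONT and 8, 9 and 21 in CAC (log2 fold change -2.58, adjusted p = 0.283 by edgeR), with every CAC library below every CONT library, as in 10.7% of all genes. Slc39a4, the importer of dietary zinc in the gut, had 14, 199 and 181 reads against 22, 55 and 34 (log2 fold change -2.04, adjusted p = 0.349 by edgeR). Slc39a3 and Slc39a9 had every CAC library above every CONT library, as in 11.8% of all genes, with log2 fold changes of 0.21 and 0.31 and adjusted p of 0.560 and 0.490. Of 7 other SLC30 exporters tested, 1 had an unadjusted p under 0.05, in the lower direction, and the median was 0.02. It was Slc30a2, which loads zinc into vesicles, with 26, 651 and 501 reads in CONT and 22, 75 and 59 in CAC (log2 fold change -3.12, adjusted p = 0.284 by edgeR). CONT replicate 1 lay at the CAC level in Slc39a4 and Slc30a2. The same held for Mt3, a metallothionein best known from brain, with 10, 853 and 333 reads against 9, 37 and 9 (log2 fold change -4.59, adjusted p = 0.278 by edgeR). Mt4 had at most 1 read in any library and was not tested.

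**Figure D5:**
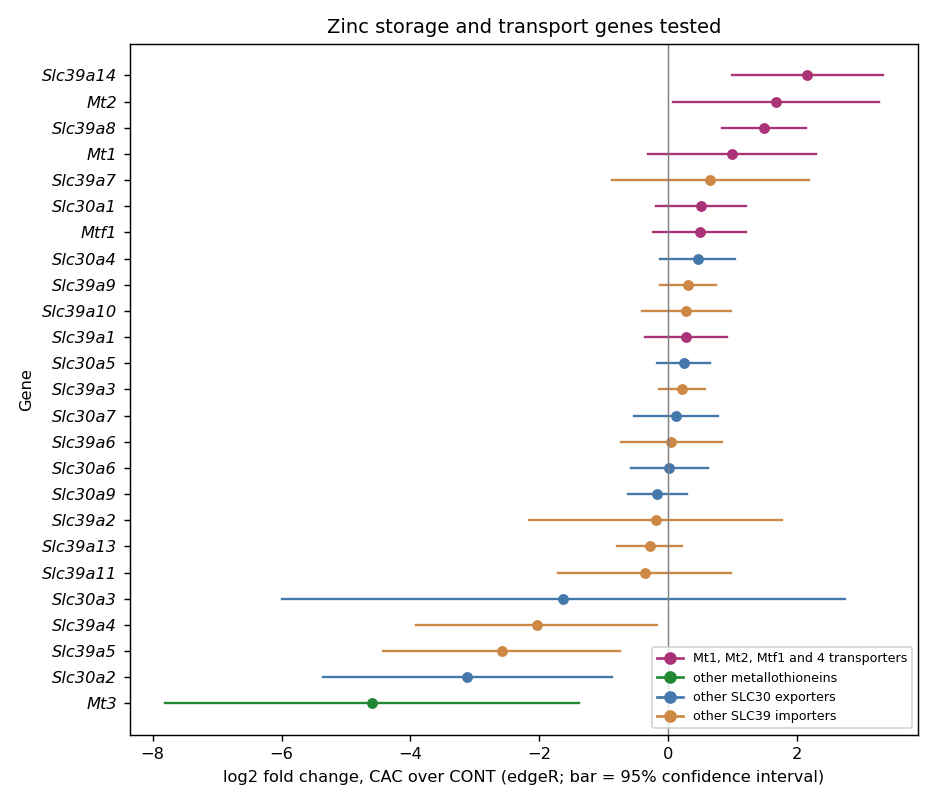
Log2 fold changes of CAC over CONT by edgeR (horizontal axis) with 95% confidence intervals for the zinc storage and transport genes tested (vertical axis), colored by group. Slc39a14, Mt2 and Slc39a8 are the only genes whose interval lies above 0, while those of Mt3, Slc30a2, Slc39a5 and Slc39a4 lie below it.

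ZIP8 and ZIP14 also carry iron and manganese, so the genes that handle iron, manganese and copper were counted beside them. Of 14 tested, 0 had an unadjusted p under 0.05 by edgeR in either direction, against the 6.31% and 6.95% above, and in 0 did the groups not overlap, against 11.8% of all genes higher and 10.7% lower. Their median log2 fold change was 0.10. The 3 with the smallest p were Slc40a1, the iron exporter ferroportin, at 0.79 (adjusted p = 0.462), Hmox1, which frees iron from heme, at 0.72 (adjusted p = 0.523), and the copper transporter gene Slc31a2 at -0.24 (adjusted p = 0.611). Hmox1 lay at 47.0, 38.4 and 43.4 CPM in CONT and 44.5, 39.8 and 127 CPM in CAC. Its difference thus came from CAC replicate 3 alone.

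Genes known to respond to glucocorticoids and to interleukin-6 were counted because metallothioneins and ZIP14 are known to respond to these signals. Of 12 glucocorticoid-responsive genes tested, 9 had an unadjusted p under 0.05 in the higher direction by edgeR and 0 in the lower (6.31% and 6.95% of all genes), 8 had every CAC library above every CONT library (11.8% of all genes did), and the median log2 fold change was 1.64. Ddit4, Pdk4 and Fkbp5 had log2 fold changes of 2.89, 2.78 and 2.45, each with an adjusted p of 0.127, the smallest of all genes tested. Of 13 genes of the interleukin-6 and STAT3 response tested, 5 were higher and 2 lower at an unadjusted p under 0.05 (6.31% and 6.95% of all genes), 4 had every CAC library above and 2 every CAC library below CONT (11.8% and 10.7%), and the median was 0.72. Il6ra and Osmr, receptor subunits for interleukin-6 and oncostatin M, were higher at 1.85 and 0.90 with adjusted p of 0.224 and 0.238, and the acute-phase gene Orm1 was lower at -1.68 with an adjusted p of 0.228. Whether either signal had a part in the levels of the zinc genes was not tested.

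Markers of other cells also differed in level between the groups, though edgeR called 0 of them at an adjusted p under 0.05. In bulk tissue, fewer cells of a type and less RNA per cell cannot be told apart. Neutrophil markers summed to 14.98, 68.6 and 95.6 CPM in CONT and 202, 292 and 1208 CPM in CAC, with 7 of 8 markers higher in every CAC library than in any CONT library, against 11.8% of all genes. Ly6g, a defining marker of mouse neutrophils, had 0, 3 and 3 reads against 16, 27 and 86. CAC replicate 3, the highest library of Slc39a14, Slc39a8, Mt1 and Mt2, was also the highest in these markers and in testis markers (1553 CPM). The other CAC libraries also held more of the neutrophil markers than any CONT library. Markers of B and plasma cells ran from 53.8 to 93.4 CPM in CONT and 9.02 to 20.4 CPM in CAC, and those of fibroblasts from 2147 to 2746 and 1359 to 2099 CPM. Of the 6 fibroblast markers, 4 (Col1a1, Col1a2, Col3a1 and Lum) lay lower in every CAC library (10.7% of all genes did) and Dcn higher (11.8%), while Pdgfra overlapped. The ranges of CONT and CAC overlapped for markers of macrophages (749 to 2085 and 896 to 1654 CPM), T cells (11.1 to 16.4 and 7.33 to 11.6), mesothelium (111 to 194 and 62.8 to 201), endothelium (1000 to 1789 and 1355 to 1587), skeletal muscle (8.41 to 46.3 and 11.03 to 47.0) and erythroid cells (261 to 5678 and 1853 to 2439). For macrophages, endothelium, skeletal muscle and erythroid cells, the overlap rested on CONT replicate 1 alone. CONT replicates 2 and 3 held 2076 and 2085 CPM of macrophage markers, above every CAC library. They held 1000 and 1102 CPM of endothelial, 8.41 and 10.35 of skeletal muscle and 261 and 392 of erythroid markers, below every CAC library. The part of any of the cell types named here in the levels of the zinc genes was not tested.

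The genes whose profiles over the 6 libraries were most like 3 of the zinc genes were found by the root mean square difference of log2 CPM, each gene centred on its own mean. Closest to Mt1 were Ctla2a (0.247), Capn9 (0.279), Tmed5 (0.284), Nnmt (0.302) and Cebpb (0.323). Like Mt1, these 5 genes had more CPM in CONT replicate 1 than in CONT replicates 2 and 3. Closest to Mt2 were Gm11730 (0.275), Gm10309 (0.336), Muc2 (0.341), Irx3 (0.451) and Gm43672 (0.452). Closest to Slc39a14 were D430020J02Rik (0.149), Gm14221 (0.197), Sav1 (0.221), a locus without a gene name (0.232) and Mrgpra2b (0.292). Sav1, a scaffold of the Hippo pathway, had 26.1, 51.4 and 50.4 CPM in CONT and 132, 127 and 221 CPM in CAC. Log2 CPM was taken with a prior count of 2. Capn9, Gm10309, Muc2 and Mrgpra2b had at most 2.15, 1.89, 3.81 and 1.28 CPM in any library, so their likeness is less certain. All these likenesses are over 6 libraries that share depth and composition, and they are descriptions only.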

How the data were processed

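Poly(A) RNA of eWAT was sequenced from 3 CONT and 3 CAC mice on an Illumina HiSeq. Per the submitters' processing notes, HISAT2 2.0.5 and featureCounts 1.5.0-p3 were used, with the mouse genome of Ensembl. Strand and multi-mapping settings are not given in the sources used here. The deposited counts are whole reads per gene, without normalization. The authors also deposited FPKM values, made from these counts with the length of each gene and a total per library. That total was below the summed counts in CONT replicate 1 and above them in the other 5 libraries, and its origin is not given in the sources used here. It cancels in shares within a library, but not in FPKM levels. Groups followed the deposited labels, and no columns of other samples were found.

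Counts were fitted with edgeR 4.0.16 in R 4.3.3 (TMM factors of 0.717 to 1.16, filterByExpr, robust quasi-likelihood test, condition alone, Benjamini-Hochberg adjustment over all genes tested). A level of 1 CPM stood for 11.2 to 26.5 reads, and the common dispersion was 0.266. The script was tested on simulated counts. Single values were compared by exact two-sided permutation tests (scipy 1.17.1), whose smallest p is 0.1. Each library is 1 mouse, as the study states.

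Alternatives were RLE and upper-quartile normalization, other filters, no mitochondrial genes, the replicate block, leaving out each library, quasi-likelihood without robust estimation, DESeq2 1.42.0, limma 3.58.1 on log2(FPKM + 1) and log2(FPKM + 0.1) with and without a minimum of 0.5 FPKM in 3 libraries, and voom with sample quality weights. DESeq2 without single libraries was added after seeing the data.

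The zinc genes and the lists were chosen with earlier results of these data known. All 7 zinc genes were named, then genes of the other zinc lists with an unadjusted p under 0.05 or groups that did not overlap, up to 3 genes of each further list by smallest p, and the 5 most alike to Mt1, Mt2 and Slc39a14. Ly6g, Mt4, Slc30a3 and the 6 fibroblast markers were named after their values were seen. Positions are those of the deposited table (GRCm38), exon overlaps are from GENCODE M21, and promoter windows from RefSeq.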

Additional observations from a re-analysis of the deposited data

How the results depend on the processing

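All 7 zinc genes had a fitted log2 fold change above 0 under every alternative, but that of Slc39a1 did not differ from 0. Its smallest values were 0.07 without CONT replicate 1 and 0.000823 (standard error 0.17) by voom with sample quality weights. In the same voom fit Slc30a1 was at 0.18 and Mtf1 at 0.16, against 0.51 and 0.49 in the main fit. The number of the 7 with an adjusted p under 0.05 was 0 by edgeR in the fits on all libraries and without single libraries, 0 by limma on FPKM in each of its 3 fits, 2 by DESeq2, 2 by voom with sample quality weights, and 2 to 3 by DESeq2 without single libraries, chosen after seeing the data. The third was Mt1, without CONT replicate 1, where DESeq2 called 2123 of all genes. Over all genes, edgeR called 0, DESeq2 917 (615 to 2123 without single libraries), voom 956 and limma on FPKM from 2 to 11. The number with every CAC library above every CONT library was 2 on TMM-adjusted CPM (2039 of all 17296 genes), 4 on raw totals with Mt1 and Mt2 added (1741), and 2 to 7 without single libraries, where fewer libraries make such a split easier. It was 4 without CONT replicate 1 (3366 of all genes), 3 without CONT replicate 2 (2616) or CONT replicate 3 (2827), and 7 without CAC replicate 2 (2461). The number with an unadjusted p under 0.05 by edgeR was 3 (2294 of all genes), and 2 to 4 without single libraries (1384 to 3032), with 4 without CONT replicate 1 (3032). The cause of these shifts was not tested.

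With the replicate block, edgeR called 0 of the 7 and 1 gene in all, 2 of the 7 and 1992 of all genes had an unadjusted p under 0.05, and Mt2 had an unadjusted p of 0.109. Same-numbered libraries deviated together with r of 0.31, -0.15 and -0.22, and differently numbered ones with r from -0.44 to 0.47. With 3 libraries per group, these values cannot show whether the numbers pair the mice. Depth limits Mt2, with 10 to 112 reads per library.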
